A study of Mus musculus with 3 samples.

Results

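The 58 cell cycle and proliferation genes described here are cyclins, cyclin-dependent kinases and their inhibitors, the retinoblastoma and E2F proteins, replication licensing factors, mitotic regulators and Cdk5-type members. The Cdk5-type class holds Cdk5 and its activators, known from neurons that no longer divide, together with Cdk14, Cdk16 and Ccny. The 58 genes were chosen by name from a list of symbols and not by a cut on their values, although earlier results of these data were known. All 58 of 58 were found among the 46073 genes of the RNA table. The tissue was medial prefrontal cortex (mPFC), part of the frontal neocortex, from naïve C57BL/6 mice aged 3 months. It has 3 samples, 1 per assay: methylated DNA pulled down with a methylcytosine antibody, input DNA, and RNA. The RNA sample is the one used, and the 2 DNA samples were not analysed here. All 3 samples share strain, age and tissue, the labels name no treatment, and the tissue is a bulk dissection that mixes cell types. The design text gives 3 replicates for RNA-seq, but the table holds 1 value per gene, so values are given without error, differences between genes could not be checked against replicates, and no test was made.

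In a dividing cell, D-type cyclins with Cdk4 or Cdk6 phosphorylate the retinoblastoma protein, which releases E2F factors. E2F factors switch on genes of DNA replication, cyclin E and cyclin A with Cdk2 then carry S phase, and cyclin B with Cdk1 drives mitosis. Neurons of the adult cortex have left the cycle for good, and among its other cells the oligodendrocyte precursors are known to keep dividing slowly. Cdk5, although named as a cyclin-dependent kinase, is activated by p35-type proteins in neurons and serves neuronal migration and synaptic function.

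Levels are in FPKM, which counts fragments per kilobase of a transcript in every 1000000 mapped, a per-length unit by which genes can be ranked within the sample. Genes at or above a floor of 1 FPKM were called detected. Of the 58 members, 38 (65.5%) were detected, against 31.5% of all rows and 58.6% of protein-coding rows. All 58 are protein-coding genes in RefSeq, and over the list as a whole the share lies near that of protein-coding rows. Levels varied widely among the members, also within roles, as from 0.191 to 47.2 FPKM among the cell cycle kinases and from 0.0417 to 28.6 FPKM among the inhibitors. The 6 mitotic and proliferation genes were all below the floor, with a median of 0.191 FPKM and a highest value of 0.527 FPKM. The 9 S phase and licensing genes had a median of 1.53 FPKM, and 6 of them were detected. The 6 Cdk5-type members were all detected, with a median of 51.7 FPKM and a lowest value of 20.5 FPKM. The median was 2.59 FPKM over protein-coding rows and 9.86 FPKM over detected protein-coding rows. No member was listed at 0. In bulk tissue, fewer cells of a type and less RNA per cell cannot be told apart.

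**Figure D1:**
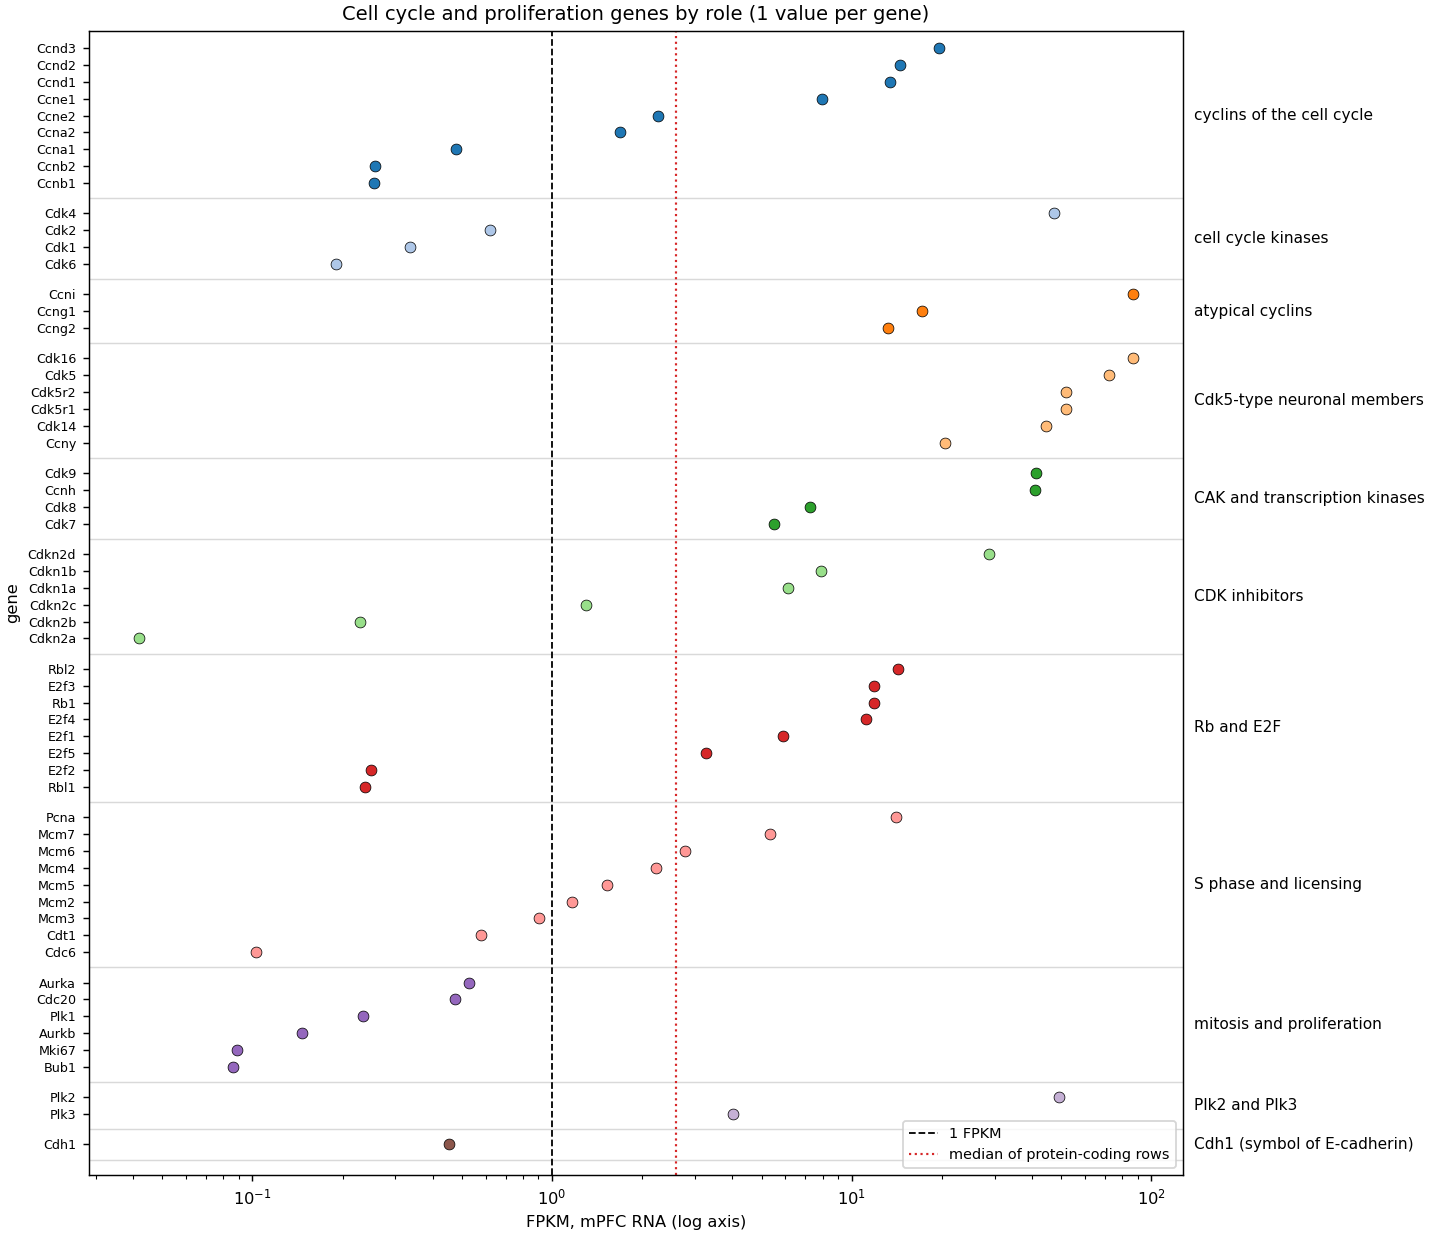
Each point is 1 member gene, placed by its level in FPKM on a log axis and grouped by role from top to bottom, with 1 value per gene and no error. The dashed line is 1 FPKM and the dotted line the median of protein-coding rows, 2.59 FPKM. The mitotic genes lie at or under 0.527 FPKM and the Cdk5-type members at or above 20.5 FPKM.

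The genes of mitosis and of proliferation were the lowest class. Mki67, whose protein is the Ki-67 antigen used to count cycling cells, stood at 0.0887 FPKM. Bub1, a kinase of the spindle checkpoint, was at 0.0861 FPKM, the lowest of the class. The Aurora kinase genes were at 0.527 FPKM for Aurka, which acts at spindle poles, and 0.147 FPKM for Aurkb, which acts at centromeres and in cytokinesis. Aurka was 3.59 times Aurkb, with both under the floor. Plk1, the Polo-like kinase of mitotic entry, was at 0.234 FPKM, and Cdc20, which activates the anaphase-promoting complex (APC/C) in mitosis, at 0.476 FPKM. In percentile rank among protein-coding rows these genes ran from 27.6 for Bub1 to 37.0 for Aurka. Aurka overlaps Cstf1 by 242 bases and Cdc20 overlaps Elovl1 by 53 bases. Cstf1 was at 6.63 FPKM and Elovl1 at 8.18 FPKM, and without stated strand handling their reads cannot be divided with certainty.

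Genes of DNA replication reached higher levels than those of mitosis, and they were spread over a wide range. Pcna, the sliding clamp of DNA polymerases that also serves DNA repair, was highest at 14.1 FPKM. Among the subunits of the Mcm2 to Mcm7 helicase, a hexamer that holds 1 copy of each, Mcm7 was at 5.34, Mcm6 at 2.78, Mcm4 at 2.22, Mcm5 at 1.53, Mcm2 at 1.17 and Mcm3 at 0.907 FPKM. Mcm7 RNA was thus 5.89 times Mcm3 RNA, and 5 of the 6 subunits were detected. Mcm2 and Mcm3 lie just above and just below the floor. The Mcm7 span also holds Mir25, Mir93 and Mir106b and overlaps Ap4m1, at 6.99 FPKM, by 91 bases. Of the factors that help to load the helicase, Cdt1 was at 0.581 FPKM and Cdc6, an ATPase of origin licensing, at 0.103 FPKM, the lowest of the class. Gmnn, whose protein geminin holds Cdt1 in check, was at 2.77 FPKM, 4.77 times Cdt1.

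The promoters of 6 members are shown because they set mitotic genes under the floor and helicase genes above it, with the motifs known for such genes, beside Plk2, a high paralog of Plk1. Sequences are from RefSeq for GRCm38.p6, the assembly that mm10 denotes, and run from 250 bases before to 50 bases after the annotated start. Capitals mark E2F motifs, spelled TTTCCCGC, TTTGGCGC, TTTCGCGC or TTTGCCGC, the cell cycle homology region (CHR) motif TTTGAA, and the CCAAT box, each searched on both strands. Adjacent or overlapping matches merge into 1 run of capitals.
Cdk1, GRCm38.p6 chr10:69352863-69353162, minus strand: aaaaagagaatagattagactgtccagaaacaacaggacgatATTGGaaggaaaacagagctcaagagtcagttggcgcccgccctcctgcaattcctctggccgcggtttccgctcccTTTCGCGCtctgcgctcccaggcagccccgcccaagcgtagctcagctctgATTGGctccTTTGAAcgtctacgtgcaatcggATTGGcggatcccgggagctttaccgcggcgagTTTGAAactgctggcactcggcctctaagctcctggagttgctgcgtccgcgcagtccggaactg
Ccnb2, GRCm38.p6 chr9:70421505-70421804, minus strand: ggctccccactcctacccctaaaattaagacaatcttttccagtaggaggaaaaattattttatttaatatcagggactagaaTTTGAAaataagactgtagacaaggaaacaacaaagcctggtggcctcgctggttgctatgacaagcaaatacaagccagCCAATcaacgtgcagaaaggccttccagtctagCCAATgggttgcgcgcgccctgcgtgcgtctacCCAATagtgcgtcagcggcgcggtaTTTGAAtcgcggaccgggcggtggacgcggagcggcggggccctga
Plk1, GRCm38.p6 chr7:122159185-122159484, plus strand: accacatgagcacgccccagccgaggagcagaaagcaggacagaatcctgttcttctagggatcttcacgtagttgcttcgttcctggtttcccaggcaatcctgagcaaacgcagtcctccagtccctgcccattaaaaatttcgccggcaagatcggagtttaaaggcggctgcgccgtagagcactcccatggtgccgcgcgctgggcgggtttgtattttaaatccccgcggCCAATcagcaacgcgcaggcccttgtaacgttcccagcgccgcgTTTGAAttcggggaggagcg
Mcm5, GRCm38.p6 chr8:75109259-75109558, plus strand: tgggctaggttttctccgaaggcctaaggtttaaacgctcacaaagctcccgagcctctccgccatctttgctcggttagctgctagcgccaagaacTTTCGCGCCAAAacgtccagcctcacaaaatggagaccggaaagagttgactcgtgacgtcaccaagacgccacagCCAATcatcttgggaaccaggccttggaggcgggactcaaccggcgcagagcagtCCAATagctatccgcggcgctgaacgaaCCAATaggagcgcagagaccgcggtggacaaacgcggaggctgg
Mcm6, GRCm38.p6 chr1:128359656-128359955, minus strand: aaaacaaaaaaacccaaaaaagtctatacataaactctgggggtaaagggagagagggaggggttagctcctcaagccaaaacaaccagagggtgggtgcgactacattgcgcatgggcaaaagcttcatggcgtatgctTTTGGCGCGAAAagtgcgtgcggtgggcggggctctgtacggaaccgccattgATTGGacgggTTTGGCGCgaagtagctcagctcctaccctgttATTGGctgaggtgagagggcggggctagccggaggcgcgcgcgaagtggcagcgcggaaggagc
Plk2, GRCm38.p6 chr13:110394794-110395093, plus strand: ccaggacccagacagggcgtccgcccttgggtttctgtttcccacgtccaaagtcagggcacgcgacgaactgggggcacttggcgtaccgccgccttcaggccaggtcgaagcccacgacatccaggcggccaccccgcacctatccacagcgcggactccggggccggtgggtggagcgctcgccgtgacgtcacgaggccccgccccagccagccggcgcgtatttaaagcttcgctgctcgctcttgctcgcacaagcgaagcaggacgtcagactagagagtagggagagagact

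Counted from 0 at the start site, the Cdk1 window has CHR motifs that begin at -71 and -15, CCAAT boxes on the opposite strand at -208, -80 and -48, and an E2F motif at -131. The Ccnb2 window has CCAAT boxes at -87, -54 and -21 and a CHR motif at 4 as well as 1 at -167. In the Plk1 window the CCAAT box begins at -14 and the CHR motif at 30. The Mcm5 window has a pair of overlapping E2F motifs at -153 and -149, on opposite strands, with CCAAT boxes at -77, -22 and 6. In the Mcm6 window E2F motifs begin at -110, -106 and -47 and CCAAT boxes on the opposite strand at -57 and -14. The Plk2 window holds none of the 3 motifs, and Plk2 stood at 49.2 FPKM, 209.7 times Plk1. These 6 windows were picked with levels known, and a relation of motifs to level was not tested. Of windows not shown, Mcm3, a helicase gene at 0.907 FPKM, holds E2F motifs, and Cdk6, at 0.191 FPKM, holds none of the 3. The Cdk6 window lies inside the span of the gene. Over members with a window, E2F motifs were in 8 of 18 under the floor (44.4%) and 4 of 26 at or above it (15.4%). Over protein-coding genes with a window, the E2F shares were 1.58% under the floor and 4.48% at or above it. CHR motifs were in 8 (44.4%) and 5 (19.2%) of these members, against 24.9% and 13.2% of protein-coding genes.

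Promoter windows were matched for 44 of the 58 members. Ccna2, Ccnd1, Ccnd2, Ccne2, Cdk5, Cdk5r1, Ccny, Ccnh, Rb1, E2f4, E2f5, Mcm4, Aurkb and Cdh1 had no entry in the table. E2F motifs were in 6 of 8 S phase and licensing promoters (75%), in none of 5 mitotic promoters, and in 544 of 16564 promoters of protein-coding genes (3.28%). The 6 were Mcm3, Mcm5, Mcm6, Mcm7, Cdc6 and Cdt1. CHR motifs showed the other pattern, with 4 of 5 mitotic promoters (80%), 1 of 8 S phase promoters (12.5%), and 18% of protein-coding promoters. The mitotic promoters with a CHR motif were Mki67, Aurka, Plk1 and Cdc20, and each of these 4 also held a CCAAT box, a pairing found in 1336 of the 16564 promoters. Cdk1, Ccnb1 and Ccnb2 are classed with the kinases and cyclins and are outside these counts. Cdk1 and Ccnb2 hold a CHR motif, Cdk1 also an E2F motif, and Ccnb1 neither. In the Rb and E2F class 3 of 5 promoters held an E2F motif and 3 of 5 a CHR motif. CCAAT boxes were in 5 of 5 mitotic and 6 of 8 S phase promoters, against 41.8% of protein-coding promoters. In the 250 bases before the start alone, CHR motifs were in 2 of the 5 mitotic promoters, since those of Aurka and Plk1 lie after the start, against 16.4% of protein-coding promoters. E2F motifs were then in 4 of the 8 S phase promoters, against 2.7%. A gene with several annotated starts was counted once if any of its windows held the motif. The windows of Aurka, Ccna1, Cdc6, Cdk6, Cdk8 and E2f1 lie inside the span of the gene. Motifs nearer the outer end of those spans were not searched. The matches describe letters in these windows and were not tested as binding sites.

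**Figure D2:**
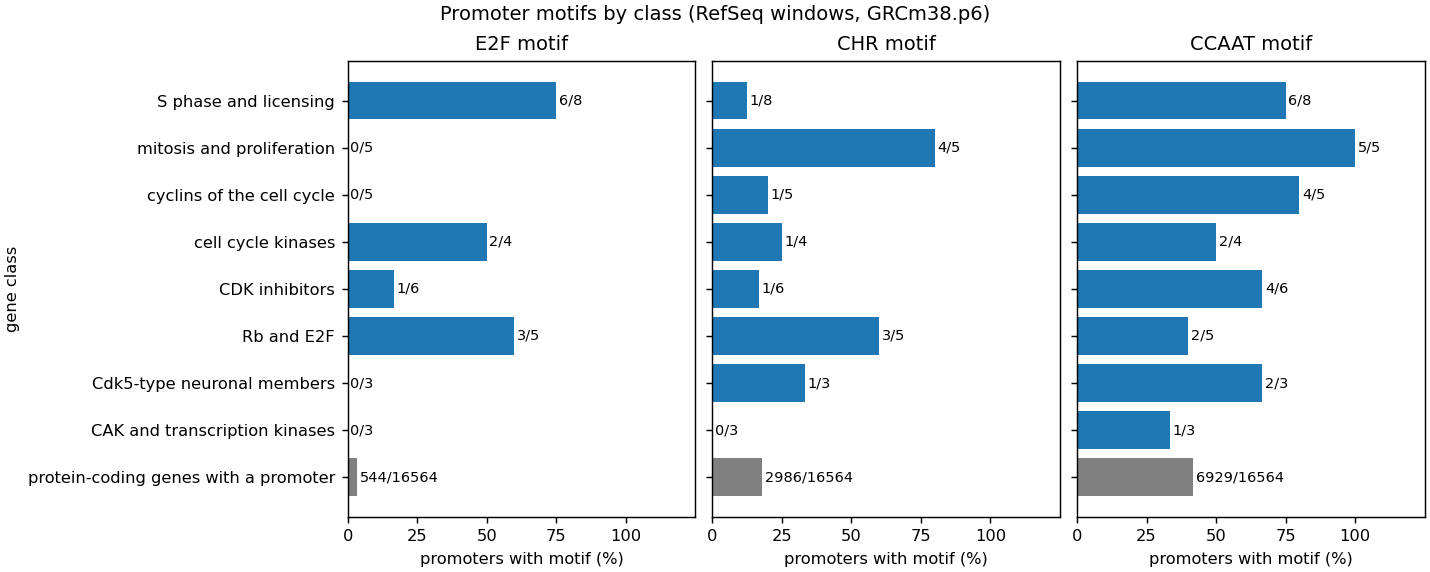
Bars give the percentage of promoters in each class of members that hold an E2F, CHR or CCAAT motif on either strand, from 0, with the counts beside them, and the grey bar gives all protein-coding genes with a promoter window. E2F motifs are in 6 of 8 S phase promoters and CHR motifs in 4 of 5 mitotic promoters, against 3.28% and 18% of protein-coding promoters.

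The promoters of members under the floor, mitotic genes among them, had more CpG than the median protein-coding gene under the floor. CpG content was measured as the number of CpG dinucleotides over that expected from the C and G content of the window. The ratio had a median of 0.867 over the 18 members under the floor with a window, against 0.219 over the 6842 protein-coding genes under the floor. It exceeded that background median in 18 of the 18, and the median of detected protein-coding genes, 0.754, in 13 of the 18. Mcm3 at 0.452 and E2f2 at 0.559 lay below the median of all 16564 protein-coding genes, 0.581. The 26 detected members had a median of 0.858, against that 0.754 over 9722 detected protein-coding genes. The mitotic class was at 0.977, from 0.809 for Mki67 to 1.004 for Plk1, and the S phase class at 0.905, from 0.452 for Mcm3 to 1.003 for Mcm5. Over the 16564 protein-coding genes, FPKM and the CpG ratio had a Spearman rho of 0.65, and over the 44 members of -0.07. Both are descriptions across genes that share 1 library and differ in base composition. The methylation of these promoters was not analysed here.

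**Figure D3:**
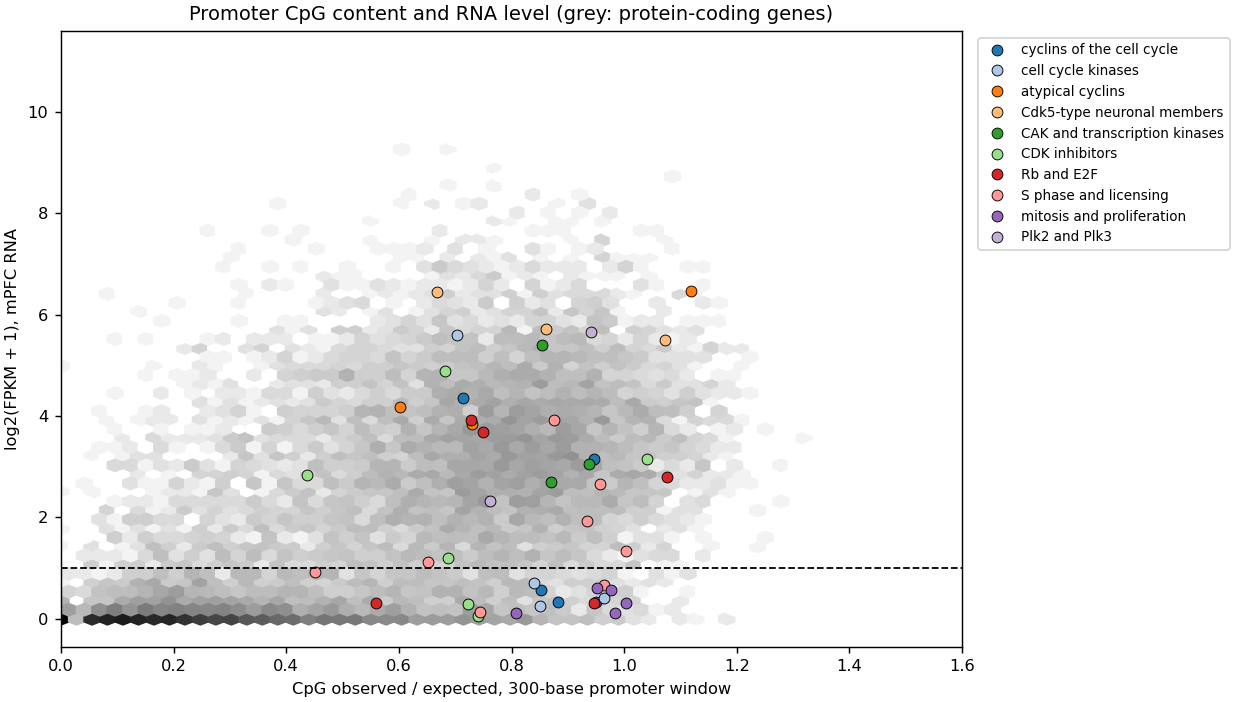
The horizontal axis is the CpG observed over expected ratio of the promoter window and the vertical axis log2(FPKM + 1), with the dashed line at 1 FPKM. Grey hexagons are protein-coding genes, darker where more genes fall on a log scale, with 1 gene beyond the axis limit of 1.6, and coloured points are the 44 members by class. The mitotic genes lie below the dashed line between 0.809 and 1.004, away from the dense grey area at low CpG ratio.

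Among the 9 cyclins of the cell cycle the D-type cyclins of early G1 were highest and the B-type cyclins of mitosis lowest. Ccnd3 was at 19.6, Ccnd2 at 14.5 and Ccnd1 at 13.4 FPKM, so that Ccnd3 was 1.46 times Ccnd1. Their partners in S phase entry, the E-type cyclins, were at 7.94 FPKM for Ccne1 and 2.25 FPKM for Ccne2, a ratio of 3.52. Ccna2, the cyclin A of somatic cells, was at 1.68 FPKM and Ccna1, the cyclin A of the germ line, at 0.477 FPKM. The B-type cyclins Ccnb1 and Ccnb2 were both under the floor, at 0.255 and 0.256 FPKM. Of the summed FPKM of these 9 genes the D-type held 78.7%, the E-type 16.9%, the A-type 3.58% and the B-type 0.846%. Ccna2 overlaps Exosc9, at 24.6 FPKM, by 863 bases, and Ccne2 overlaps Ints8, at 8.67 FPKM, by 5622 bases. The D-type genes overlap others too: Ccnd1 LTO1, at 10.5 FPKM, by 818 bases, and Ccnd3 Bysl, at 5.84 FPKM, by 359 bases. Ccnd2 overlaps a long non-coding gene, at 2.38 FPKM, by 2800 bases. Leaving out overlapping genes left 3 of the 9 cyclins, of which 1 was detected, with a median of 0.256 FPKM. A pseudogene of cyclin B2, Ccnb2-ps, was listed at 1.54 FPKM, above Ccnb2 itself, so the split of reads between them is uncertain.

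Of the 4 cell cycle kinases 1 was detected. Cdk4, a partner of D-type cyclins, was at 47.2 FPKM, and Cdk6, its paralog with the same partners, at 0.191 FPKM, a ratio of 247. Cdk2, the partner of cyclins E and A, was at 0.623 FPKM, and its span overlaps that of Pmel, at 0.142 FPKM, over 7114 bases. Cdk1, the mitotic kinase, was at 0.335 FPKM. The early G1 kinase Cdk4 was thus 75.7 times Cdk2 and 140.8 times Cdk1.

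The INK4 inhibitors differed widely in level and the 2 Cip/Kip inhibitors among the members lay close together. Of the INK4 inhibitors, which bind Cdk4 and Cdk6, Cdkn2d (p19-INK4d) was highest at 28.6 FPKM and Cdkn2c (p18-INK4c) followed at 1.30 FPKM, a ratio of 22.0. Cdkn2b (p15-INK4b) was at 0.229 FPKM and Cdkn2a, which encodes p16-INK4a and p19-ARF and rises with cell senescence, at 0.0417 FPKM, the lowest of the 58 members. Cdkn2d was 686 times Cdkn2a. Both Cip/Kip members, which bind Cdk2 complexes, were detected, with Cdkn1b (p27-KIP1) at 7.88 and Cdkn1a (p21-CIP1), a target of p53, at 6.11 FPKM. A further gene of this family, Cdkn1c, is not among the members and was at 2.38 FPKM. The Cdkn2a value is per gene and does not separate its transcripts.

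The retinoblastoma family and, of the E2F factors, the members E2f1 to E2f5 were detected except for 1 gene of each. Rbl2 (p130), the pocket protein of resting cells, was at 14.2 FPKM and Rb1 at 11.8 FPKM, whereas Rbl1 (p107), the pocket protein of cycling cells, was at 0.237 FPKM. Rbl2 was 59.96 times Rbl1, and 1.203 times Rb1. Rbl2 overlaps Aktip, at 42.7 FPKM, over 12064 bases. Of the E2F factors counted as activators, E2f3 was at 11.9 and E2f1 at 5.91 FPKM, and E2f2 was at 0.249 FPKM, so that E2f3 was 47.9 times E2f2. Of the repressive factors, which act with Rbl2 and Rbl1, E2f4 was at 11.1 and E2f5 at 3.26 FPKM. Both members of the class under the floor, Rbl1 and E2f2, hold an E2F motif in their promoter windows, and so does E2f3 among its detected members.

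The Cdk5-type members were the highest class among those with more than 3 genes. Cdk16 (PCTAIRE-1), a kinase bound by cyclin Y, was at 86.5 FPKM and Cdk5 at 72.4 FPKM, at percentiles 96.6 and 95.8 of protein-coding rows. Cdk14 (PFTAIRE-1), which also binds cyclin Y, was at 44.4 FPKM, and Ccny, cyclin Y itself, at 20.5 FPKM. The activators of Cdk5 were at nearly the same level, with Cdk5r1 (p35) at 51.698 and Cdk5r2 (p39) at 51.703 FPKM. Cdk5 was 216 times Cdk1 and 116 times Cdk2, but 1.54 times Cdk4. Cdk5 overlaps Abcb8, at 19.95 FPKM, over 5163 bases, and Cdk5r2 overlaps the long non-coding gene Gm16582, at 0.0105 FPKM, over its whole length.

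The CDK-activating and transcription kinase genes, 3 kinases and the cyclin Ccnh, were detected in 4 of 4 cases. Cdk9, which releases paused RNA polymerase, was at 41.1 FPKM, and Cdk8, of the Mediator complex, at 7.27 FPKM. Ccnh and Cdk7 form the CDK-activating kinase, which is also part of the transcription factor TFIIH. Ccnh was at 41.0 FPKM and Cdk7 at 5.49 FPKM, so that the cyclin was 7.47 times its kinase. Mnat1, the assembly factor of that complex, was at 9.11 FPKM and was named after its value was seen. The atypical cyclins, which are not tied to cycle phases in the manner of cyclins A and B, were higher than the 9 cell cycle cyclins at their medians, at 17.1 and 2.25 FPKM. Ccni was at 86.9 FPKM, the highest of all 58 members, Ccng1, a target of p53, at 17.1 FPKM and Ccng2 at 13.3 FPKM. Ccni overlaps Septin11, for which no value was matched, by 436 bases, and the pseudogene Gm2986, at 0.358 FPKM, by 563 bases. Among the Polo-like kinases with roles outside mitosis, Plk2, which is induced by neuronal activity, was at 49.2 and Plk3, a stress-response kinase, at 4.02 FPKM, a ratio of 12.2.

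Cdh1 on the list of members is the symbol of E-cadherin, an adhesion protein of epithelia, and it was at 0.455 FPKM. The APC/C coactivator that is also called Cdh1, and that keeps the complex active outside mitosis, is encoded by Fzr1. Fzr1 was at 26.9 FPKM, 59.2 times the E-cadherin gene and 56.6 times Cdc20, the mitotic coactivator.

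**Figure D4:**
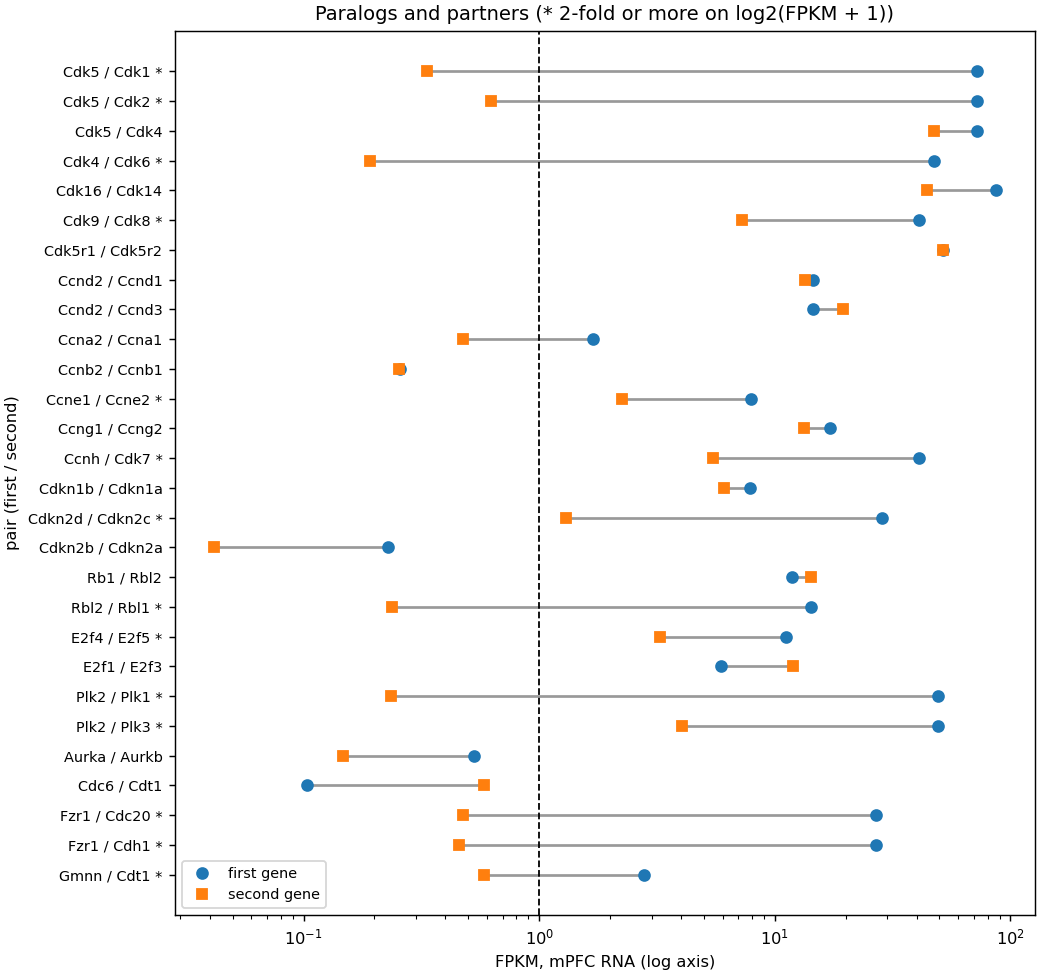
Each row is a pair of paralogs or partners, with the first gene as a circle and the second as a square at their levels in FPKM on a log axis, and the dashed line at 1 FPKM. Asterisks mark the 14 of 28 pairs that differ 2-fold or more on the log2(FPKM + 1) scale, and in each of these the first gene is higher.

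Of 28 pairs of paralogs and partners 14 differed 2-fold or more on the log2(FPKM + 1) scale, which understates differences of low genes. In all 14 the first gene was higher, and the order within a pair was written with earlier results of these data known. Pairs that lay closer included Ccnd2 and Ccnd1, at a ratio of 1.08, Cdkn1b and Cdkn1a, at 1.29, and Cdk16 and Cdk14, at 1.95. E2f3 was 2.01 times E2f1 in FPKM but fell short of 2-fold on the log2(FPKM + 1) scale.

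Further genes of the same pathways were read by role from fixed lists. Of 36 further genes of mitosis 10 (27.8%) were detected, against 58.6% of protein-coding rows, and the median was 0.413 FPKM. Pttg1, which encodes securin, was at 39.9, Bub3, a checkpoint protein, at 23.9 and Mad1l1, of the same checkpoint, at 5.72 FPKM, while Sgo1, the protector of centromeric cohesion, was at 0.0375 and Aspm, of the spindle poles, at 0.0330 FPKM. Of 35 genes of licensing and of the replication fork 21 (60%) were detected, near the 58.6% of protein-coding rows, and the median of the list was 3.07 FPKM. Orc4 at 29.1, the clamp loader gene Rfc2 at 28.6 and Orc3 at 18.3 FPKM were highest, and Pole, a replicative polymerase, at 0.292 and the chromatin assembly gene Chaf1b at 0.207 FPKM lowest. Orc1, the origin recognition subunit that human cells destroy in each S phase, was at 0.456 FPKM, against 8.01 to 29.1 FPKM for the 5 genes Orc2 to Orc6, a contrast chosen after the values were seen.

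The anaphase-promoting complex had a detected gene for 15 of 15 members, with a median of 18.1 FPKM. Anapc5 was at 123.7, Anapc13 at 50.1 and Anapc16 at 38.2 FPKM, and Cdc27 at 9.47 and Anapc10 at 2.01 FPKM were lowest. Of 20 genes of the E2F, DREAM and checkpoint list 14 (70%) passed the floor, against 58.6% of protein-coding rows, and the median of 2.02 FPKM lay below the 2.59 FPKM of those rows. DREAM is a repressor complex of resting cells, in which Rbl2 or Rbl1 and E2f4 or E2f5 join a core of Lin proteins and Rbbp4 and which is known to bind E2F and CHR motifs. Highest on the list were Rbbp4 at 44.3, Lin37 at 31.2 and Tfdp1, a dimer partner of E2F factors, at 15.9 FPKM. The other Lin genes on the list were lower, with Lin52 at 8.66, Lin54 at 3.08 and Lin9 at 1.28 FPKM. The phosphatase gene Cdc25c, an activator of Cdk1, was at 0.0972 and E2f8, an atypical E2F of cycling cells, at 0.0501 FPKM. Of 31 other cyclin and CDK genes 29 (93.5%) passed the floor, at a median of 6.42 FPKM, led by Cdk17, a PCTAIRE kinase like Cdk16, at 36.6 and Cdk11b at 21.4 FPKM. Ccno, a cyclin of multiciliated cells, was at 0.784 and Cdk15 at 0.194 FPKM.

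**Figure D5:**
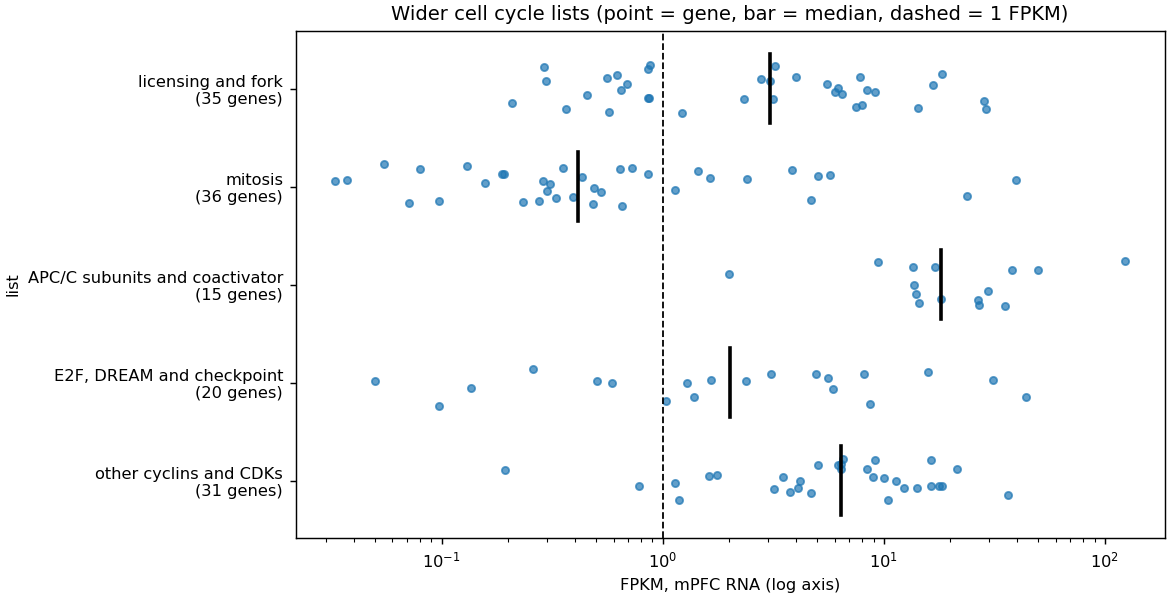
Each point is 1 gene of the 5 wider lists at its level in FPKM on a log axis, with a black bar at the median of the list and a dashed line at 1 FPKM. The mitosis list has its median at 0.413 FPKM and the APC/C list at 18.1 FPKM.

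Markers of some cell types that the dissection could hold were read beside these levels, without a list for astrocytes or for mature oligodendrocytes. The floor was passed by 58.6% of protein-coding rows. The shares of the neural progenitor and neuroblast list (62.5%) and of the epithelial and choroid plexus list (66.7%) lie near that. Neuronal markers were detected in 8 of 8 cases, from Rbfox3 at 80.0 to Snap25 at 1279.5 FPKM, and their summed level was 3486 FPKM. Markers listed for oligodendrocyte precursors were detected in 6 of 6 cases, from Cspg4 at 1.66 to Olig1 at 20.9 FPKM, with a sum of 46.5 FPKM. Olig1 and others on this list are also expressed in mature oligodendrocytes, so the sum does not stand for precursors alone. The 6 mitotic members summed to 1.56 FPKM and the 9 S phase members to 28.7 FPKM. Of 8 markers of neural progenitors and neuroblasts 5 were detected, with a sum of 27.9 FPKM, of which Tbr1, which mature deep-layer neurons also express, made up 20.7 FPKM, and Eomes, of intermediate progenitors, was lowest at 0.0229 FPKM. Microglia markers were detected in 6 of 6 cases (131.8 FPKM summed, from Tmem119 at 7.66 to C1qb at 39.7), endothelial markers in 5 of 5 (41.4 FPKM summed, from Kdr at 1.40 to Ly6c1 at 19.9) and ependymal markers in 3 of 3 (5.38 FPKM summed, from Ccdc153 at 1.72 to Foxj1 at 1.84). In the epithelial and choroid plexus list 4 of 6 were detected (588.6 FPKM summed), led by Ttr at 565.9 FPKM, with Epcam lowest at 0.0940 FPKM. Genes listed for lymphocytes were detected in 0 of 3 cases (0.843 FPKM summed, from Cd3e at 0.0377 to Ptprc at 0.577). Ptprc is not particular to lymphocytes, so that sum does not stand for them alone. No marker was listed at 0. Which cells the RNA of the low cell cycle genes came from was not tested.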

How the data were processed

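Per the labels' protocols, RNA from mPFC tissue was prepared with Tri-reagent and DNase, and the library with an Illumina TruSeq kit. CASAVA 1.8.2, TopHat and Cufflinks with build mm10 are named in the submitters' processing notes. Not given in the sources used here are their other versions, the annotation, how strand was handled and how replicates were combined. The authors deposited FPKM, and the 2 value columns are equal in 46073 of 46073 rows, so they were counted as 1 sample. The depth is unknown, and values therefore carry no counting interval.

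Ensembl identifiers were matched to symbols for 45139 rows, and RefSeq (GRCm38.p6) gave biotypes (20635 protein-coding rows), spans and promoters. Levels, ratios, percentile ranks, medians, geometric means on the log2(FPKM + 1) scale, motif matches and CpG ratios were computed with Python 3.11.15, numpy 2.4.6, pandas 2.3.3, scipy 1.17.1 and matplotlib 3.10.9. The motif search recovered 200 of 200 motifs planted in 200 simulated windows. The members, lists, pairs, motifs and marker genes were chosen with earlier results of these data known. Named genes are the members, the genes of the pairs, and the 3 highest and 2 lowest of each wider list, with the extremes of each marker list, except 1 gene that is not reported here. Mnat1, Cdkn1c, Lin52, Lin54, Lin9 and the Orc genes outside that rule were named after their values were seen. Some genes that overlap a member are also named. Of 32 symbols on the list of other cyclins and CDKs 31 were matched. A planned comparison of kinase proteins was not run.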

Additional observations from a re-analysis of the deposited data

How the results depend on the processing

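Floors of 0.1, 0.5, 2 and 5 FPKM gave 55, 42, 34 and 29 detected members of 58, against 38 at 1 FPKM. For the mitotic class floors of 0.1 and 0.5 FPKM gave 4 and 1 detected genes of 6, and for the S phase class a floor of 5 FPKM gave 2 of 9. Rescaling the table without mitochondrial rows multiplies every other value by 2.002 and brought 1 mitotic gene, Aurka, over the floor, with 42 members detected. Leaving out the 24 members whose span overlaps another gene removes genes by construction. It left 21 detected of 34 members and 3 of 3 Cdk5-type members. The medians were then 2.50 FPKM over all members, 51.70 for the Cdk5-type, 1.35 for the S phase and 0.118 FPKM for the mitotic class. Geometric means in place of medians were 4.95, 49.9, 2.02 and 0.248 FPKM in the same order, against medians of 4.68, 51.7, 1.53 and 0.191 FPKM. Putting Fzr1 in place of Cdh1 moved the median of all members to 5.42 FPKM. The order of the 3 classes was the same by geometric mean and without overlapping members. With pseudocounts of 0.1 and 0.01, 18 and 19 of the 28 pairs were 2-fold or more apart, against 14, and no pair changed direction. In the 250 bases before the start alone, which are fewer bases, 9 members held an E2F, 11 a CHR and 25 a CCAAT motif, against 12, 13 and 27. Leaving out replicates was not possible with 1 value per gene. No paired analysis was possible because the table has 1 sample.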
